A study of Mus musculus with 2 samples.

Results

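The genes described here move glutamate and glutamine across membranes or make glutamine, and comprised 7 of the 24411 genes counted, chosen by symbol: the vesicular glutamate transporters *Slc17a6* and *Slc17a7*, the excitatory amino acid transporters *Slc1a1*, *Slc1a2* and *Slc1a3*, the glutamine synthetase gene *Glul* and the glutamine transporter *Slc38a1*. *Glul* is the single enzyme among them, so the glutamine cycle was covered mainly by its carriers. They were measured in the area labelled subventricular zone (SVZ) and in the cortex, where newborn neurons settle. The label does not say whether the SVZ area took in the cells that line the ventricle. Both areas came from brains of mouse embryos, frozen fresh at day 16.5. Laser capture microdissection (LCM) cut both areas from stained sections, and each gave 1 bulk RNA-seq library. The sources used here do not give the strain, the genotype, the sex or how many embryos went into each library. In the study these libraries served to compare a light-directed barcoding method with LCM over matching areas. The pieces were not sorted, so each can hold every cell type of its area.

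In the mature brain, neurons load glutamate into synaptic vesicles through the SLC17 transporters, and astrocytes clear the released glutamate through transporters of the SLC1 family. Astrocytes turn glutamate into glutamine with glutamine synthetase, and neurons take glutamine up through SLC38 carriers and turn it back into glutamate. In the embryonic cortex, before astrocytes are common, radial glia, the progenitors that line the ventricle, are known to carry the glial glutamate transporter encoded by *Slc1a3*.

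Gene-assigned reads numbered 51435667 for SVZ and 22050693 for cortex. Levels are given in CPM, the reads of a gene per 1000000 gene-assigned reads, and ratios are SVZ CPM over cortex CPM with an exact 95% interval of the read counts. With 1 library per area no difference has a replicate check and no test was possible. The intervals cover counting error only and take each read as independent. PCR copies were not told apart by molecular identifiers, so the intervals can be too narrow. In bulk pieces of tissue, fewer cells of a type and less RNA per cell cannot be told apart.

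The 7 genes divided between the areas. *Slc1a3* and *Slc17a6* were 4-fold or more higher in SVZ, and *Slc1a1* and *Slc17a7* 4-fold or more higher in cortex. *Slc1a2*, *Glul* and *Slc38a1* lay within 2-fold. A mean level of 1 CPM or more was reached by 12738 genes, of which 10.2% were that much higher in SVZ and 7.01% that much higher in cortex, against 2 and 2 of the 7 genes. At 2-fold these shares were 20.0% and 15.6%. All 7 passed this minimum, *Slc17a7* only through its level in the cortex library. *Slc17a6* stood at the edge of the rule: its 4.26-fold difference had an interval from 3.95 to 4.59, and it was 3.99-fold with TMM scaling and 3.98-fold with upper-quartile scaling. Each of the 7 kept the side of its higher CPM under every scaling tried.

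**Figure D1:**
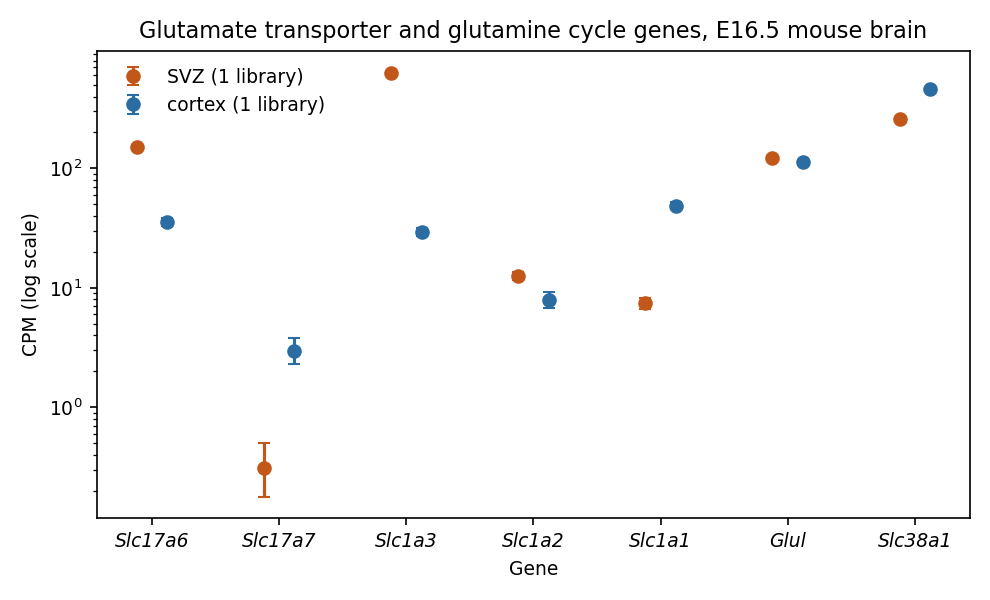
CPM of the 7 genes on a log axis in the SVZ library (orange) and the cortex library (blue), 1 library per area, with exact 95% Poisson intervals of the counts as bars. *Slc1a3* shows the widest gap, 635 CPM in SVZ against 29.4 CPM in cortex, while the *Glul* points, 123 and 114 CPM, lie almost level.

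Transporters that take glutamate up from the extracellular space were examined first. *Slc1a3*, which encodes the glial transporter GLAST, lies on GRCm38 chromosome 15 from 8634124 to 8710764 on the minus strand. It had 32682 SVZ reads (635 CPM) and 649 cortex reads (29.4 CPM). The level in the SVZ library was thus 21.6-fold higher (20.0 to 23.4), a log2 ratio of 4.43. Ordered by ratio from the SVZ side, it ranked 393 of 12738 genes.

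*Slc1a1*, which encodes EAAC1, the transporter of neuronal cell bodies and dendrites, lies on chromosome 19 from 28835049 to 28913960 on the plus strand and showed the opposite direction. It had 382 SVZ reads (7.43 CPM) and 1075 cortex reads (48.8 CPM), a level 6.56-fold higher in the cortex library (5.84 to 7.40) and a log2 ratio of -2.71. *Slc1a2*, which encodes GLT-1, the main glutamate transporter of mature astrocytes, lies on chromosome 2 from 102658659 to 102790784 on the plus strand and was low in both areas. It had 647 SVZ reads (12.6 CPM) and 175 cortex reads (7.94 CPM). Its level was 1.58-fold higher in the SVZ library (1.34 to 1.88), so the glial transporters *Slc1a3* and *Slc1a2* differed in the size of their ratio.

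Ratios between genes within a library do not depend on how the libraries are scaled. Per exon length, the SVZ library held 82.7 times as much *Slc1a3* as *Slc1a1* and the cortex library 0.584 times as much, a 142-fold difference (exact conditional interval 123 to 163). Between *Slc1a3* and *Slc1a2* the same difference was 13.6-fold (11.3 to 16.4), and between *Slc1a2* and *Slc1a1* it was 10.4-fold (8.45 to 12.8). Each of these 3 ratios thus differed between the libraries by more than counting error, if each read is taken as independent. Exons of *Slc1a1*, *Slc1a2* and *Glul* overlap genes on the other strand (*4430402I18Rik*, *Gm13872* and *Teddm2*). The kit does not mark strand, so if the gene models used for counting lack such a partner, its reads cannot be told apart. Counts made for each strand and then summed equalled the unstranded counts for all 7 genes.

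The make-up of the family changed accordingly. In reads per exon length, *Slc1a3* accounted for 97.3% of the excitatory amino acid transporters in the SVZ library (97.1 to 97.4). In the cortex library its share was 32.6% (30.6 to 34.8), and *Slc1a1* took 55.9% (53.6 to 58.1). The share of *Slc1a2* was 1.25% in SVZ and 5.72% in cortex (4.91 to 6.62). *Slc1a6*, known from Purkinje cells, had 25 and 29 reads and a cortex share of 5.78% (3.94 to 8.13), which overlaps that of *Slc1a2*, and *Slc1a7*, known from the retina, had no read in either, each 0 allowing up to 3 reads. Summed per exon length over the 5 genes, the family stood at 76.5 RPKM (CPM per kilobase of exon) in SVZ and 10.6 in cortex.

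The promoters of *Slc1a3* and *Slc1a1* are shown because these genes of one family went to opposite sides. Each sequence holds the 250 bases before the start of the gene in RefSeq (GRCm38.p6), read 5′ to 3′ on the strand of the gene, with E-boxes (CANNTG, the core bound by basic helix-loop-helix factors) in capitals.
Slc1a3, chr15:8710808-8711057: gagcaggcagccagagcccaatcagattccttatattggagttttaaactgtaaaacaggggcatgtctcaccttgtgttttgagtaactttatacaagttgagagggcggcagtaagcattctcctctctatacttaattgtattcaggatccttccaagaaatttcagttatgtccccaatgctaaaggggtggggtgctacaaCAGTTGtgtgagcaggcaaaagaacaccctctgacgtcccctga (minus strand)
Slc1a1, chr19:28834885-28835134: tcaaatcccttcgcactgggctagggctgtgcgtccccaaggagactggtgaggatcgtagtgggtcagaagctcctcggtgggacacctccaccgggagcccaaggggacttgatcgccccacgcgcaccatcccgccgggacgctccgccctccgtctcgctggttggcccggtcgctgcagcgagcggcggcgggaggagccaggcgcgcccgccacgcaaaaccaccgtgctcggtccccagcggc (plus strand)
The window of *Slc1a3* was 44.8% G and C and held 2 CG dinucleotides, whereas that of *Slc1a1* was 70.4% G and C and held 27. Over the 32851 promoter windows of that table the median was 52.4% with quartiles of 45.2% and 61.2%, and the median number of CG dinucleotides was 6 with quartiles of 2 and 16. An E-box was found once before *Slc1a3* and not before *Slc1a1*, and 66.2% of all windows held at least 1. GGGCGG, searched on both strands, was found once in each and in 32.7% of all windows. TATAAA, likewise on both strands, was found once before *Slc1a3* and in 12.4% of all windows. ATTGG and its reverse complement, the CCAAT box, were together found 3 times before *Slc1a3* and in 33.8% of all windows. These matches are letters in a window and do not show binding.

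**Figure D2:**
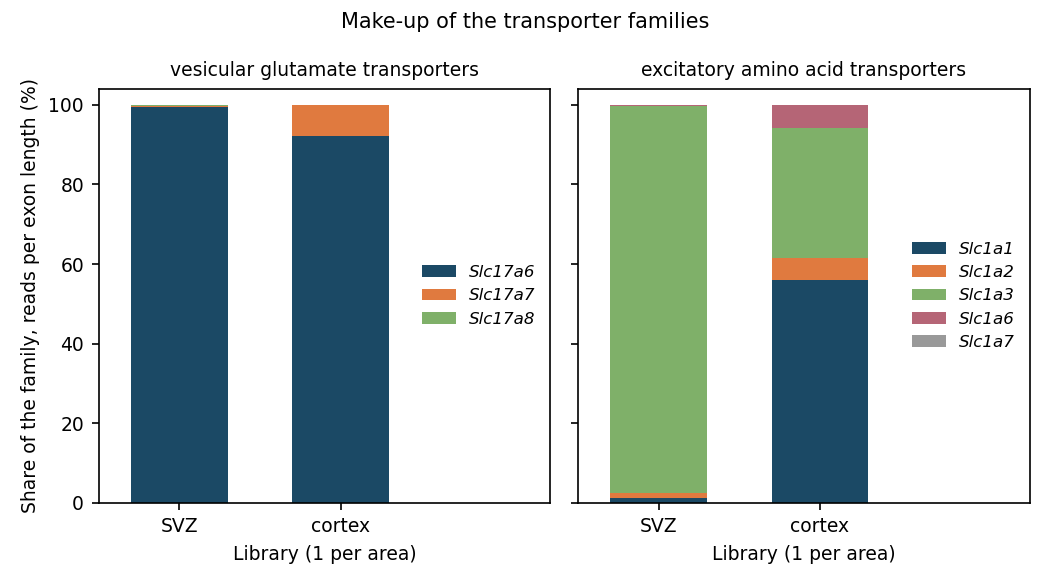
Share of each gene in its transporter family, in percent of reads per exon length, as stacked bars for the SVZ and the cortex library (1 per area). *Slc17a6* fills most of the vesicular family in both libraries (99.4% and 92.3%), whereas *Slc1a3* fills 97.3% of the uptake family in SVZ and 32.6% in cortex.

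Next, the transporters that fill synaptic vesicles were compared. *Slc17a6*, which encodes VGLUT2, lies on chromosome 7 from 51622006 to 51671119 on the plus strand. It had 7775 SVZ reads (151 CPM) and 783 cortex reads (35.5 CPM), a log2 ratio of 2.09 (1.98 to 2.20). The level of this neuronal transporter was therefore higher in the SVZ library than in the cortex library. *Slc17a7*, which encodes VGLUT1, the main vesicular transporter of the mature cortex, lies on chromosome 7 from 45163949 to 45176142 on the plus strand. It had 16 SVZ reads (0.311 CPM) and 65 cortex reads (2.95 CPM). It was 9.48-fold higher in the cortex library (5.42 to 17.5), with a log2 ratio of -3.24 (-4.13 to -2.44), the widest log2 interval of the 7 genes. *Slc17a8*, which encodes VGLUT3, had 24 SVZ reads and 0 cortex reads. Against a floor of 3 cortex reads it was 3.43-fold higher on the SVZ side, and the exact interval starts at 2.58-fold.

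*Slc17a6* was the main vesicular transporter gene in both areas. It took 99.4% of the family in SVZ (99.2 to 99.6) and 92.3% in cortex (90.3 to 94.0), in reads per exon length. *Slc17a7* took 0.205% (0.117 to 0.333) and 7.67% (5.97 to 9.68). *Slc17a8* had 0 of the 848 cortex reads of the family, for which the exact interval reaches 0.496% per exon length. Per exon length *Slc17a6* was 485 times *Slc17a7* in SVZ and 12.0 times in cortex, a 40.3-fold difference (22.9 to 75.0). The shift towards *Slc17a7* in the cortex library therefore went with a *Slc17a6* level that was still the larger there. Summed per exon length, the 3 vesicular transporters stood at 28.2 RPKM in SVZ and 7.12 in cortex.

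Their promoters are shown in the same way, since these vesicular transporters also went to opposite sides. For *Slc17a6* the table holds another start further downstream, and the upstream one is given.
Slc17a6, chr7:51621580-51621829: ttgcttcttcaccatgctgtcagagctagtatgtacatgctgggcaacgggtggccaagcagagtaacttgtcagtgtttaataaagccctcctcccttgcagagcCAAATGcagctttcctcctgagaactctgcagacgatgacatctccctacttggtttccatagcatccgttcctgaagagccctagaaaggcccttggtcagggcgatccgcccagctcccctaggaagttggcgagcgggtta (plus strand)
Slc17a7, chr7:45163671-45163920: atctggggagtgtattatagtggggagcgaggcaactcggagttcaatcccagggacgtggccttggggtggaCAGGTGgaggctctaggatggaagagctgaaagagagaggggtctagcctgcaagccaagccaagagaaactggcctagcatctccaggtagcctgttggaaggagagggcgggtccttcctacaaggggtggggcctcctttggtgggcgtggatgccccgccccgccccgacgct (plus strand)
The window of *Slc17a6* was 53.2% G and C with 7 CG dinucleotides and that of *Slc17a7* 61.2% with 9. Each held 1 E-box, with different middle letters. GGGCGG was found once before *Slc17a6* and 3 times before *Slc17a7*, and neither window held TATAAA or ATTGG.

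Both genes of the glutamine side of the cycle lay within 2-fold. *Glul*, which encodes glutamine synthetase, lies on chromosome 1 from 153899944 to 153909723 on the plus strand. It had 6311 SVZ reads (123 CPM) and 2507 cortex reads (114 CPM), a log2 ratio of 0.11 (0.04 to 0.18). This was close to the median of all 12738 genes, also 0.11, and TMM and DESeq2 scaling put it at 0.02. *Slc38a1*, which encodes SNAT1, a sodium-coupled glutamine carrier of neurons, lies on chromosome 15 from 96571418 to 96642913 on the minus strand. It had 13293 SVZ reads (258 CPM) and 10166 cortex reads (461 CPM), a level 1.78-fold higher in the cortex library (1.74 to 1.83). If each read is taken as independent, both differences exceed counting error before rescaling. That of *Glul* does not with TMM scaling, where it is 1.01-fold.

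*Slc38a1* was set beside its nearest relative. *Slc38a2*, which encodes the glutamine carrier SNAT2, had 256 and 264 CPM. The ratio of *Slc38a1* to *Slc38a2* per exon length was 0.518 in SVZ and 0.894 in cortex, 1.72-fold apart (1.66 to 1.80). In reads without length correction it was 1.01 and 1.74, so which gene stands higher within a library depends on the length used.

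Levels of different genes were compared per exon length. In the SVZ library the order was *Slc1a3* at 74.4 RPKM, *Glul* at 36.9, *Slc17a6* at 28.0, *Slc38a1* at 15.0, *Slc1a2* at 0.958, *Slc1a1* at 0.899 and *Slc17a7* at 0.0577. *Slc1a2* and *Slc1a1* were close there, with overlapping intervals of 0.885 to 1.03 and 0.812 to 0.994. In the cortex library the order was *Glul* at 34.2 RPKM, *Slc38a1* at 26.7, *Slc17a6* at 6.58, *Slc1a1* at 5.90, *Slc1a3* at 3.45, *Slc1a2* at 0.604 and *Slc17a7* at 0.547. The intervals of *Slc17a6* and *Slc1a1* overlapped (6.12 to 7.05 and 5.56 to 6.27), as did those of *Slc1a2* and *Slc17a7* (0.518 to 0.701 and 0.422 to 0.697). Such overlap does not show that levels are equal, and these differences were not tested. With the longest transcript as the length in place of all exons, *Slc1a3* still led in the SVZ library at 143 RPKM, but *Slc38a1* at 63.5 passed *Glul* at 40.7 in the cortex library, and there *Slc1a1* at 12.8 passed *Slc17a6* at 8.58. *Slc1a2* then stood below *Slc1a1* in SVZ (1.08 against 1.95) and below *Slc17a7* in cortex (0.684 against 0.957).

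**Figure D3:**
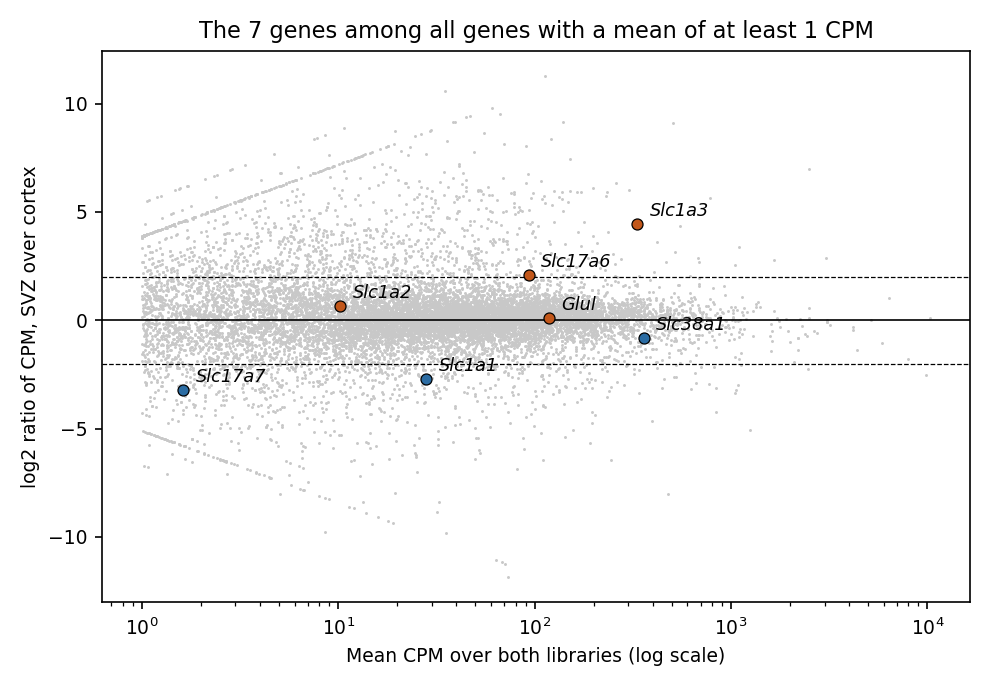
log2 ratio of SVZ over cortex CPM against mean CPM (log axis) for the 12738 genes that reached a mean of 1 CPM (grey) and the 7 genes (orange where higher in the SVZ library, blue where higher in the cortex library), with dashed lines at 4-fold. Genes at 0 in 1 library are drawn at the floor of 3 reads and form the slanting edges, and *Slc1a3* stands out at a log2 ratio of 4.43 with a high mean level.

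The other genes of the pathway were taken from a list of 38, the 7 genes included. Of the 31 others, 26 reached a mean of 1 CPM. Of these, 3 were 4-fold or more higher in SVZ, 1 was 4-fold or more higher in cortex, and 22 lay within 4-fold, beside 10.2% and 7.01% of all genes past 4-fold. Their median log2 ratio was 0.29, beside 0.11 over all 12738 genes. The 3 on the SVZ side were *Slc25a13*, *Abat* and *Slc1a5*. *Slc25a13*, which encodes the mitochondrial aspartate-glutamate carrier citrin, had 16.1 CPM in SVZ and 1.32 in cortex, a log2 ratio of 3.62 (3.08 to 4.20). *Abat*, the transaminase that breaks GABA down, had 17.9 and 2.68 CPM, a log2 ratio of 2.74 (2.36 to 3.15). *Slc1a5*, the SLC1 member that exchanges glutamine and other neutral amino acids, had 7.50 and 1.36 CPM, a log2 ratio of 2.46 (1.93 to 3.05). The 1 on the cortex side was *Gls2*, the gene of the liver-type glutaminase, with 29 SVZ and 54 cortex reads (0.564 and 2.45 CPM, log2 ratio -2.12), which reached the minimum only through the cortex library. Its exons overlap those of *Spryd4* on the other strand. Counts made for each strand and then summed gave it 146 and 92 reads (log2 ratio -0.56), which can include reads of *Spryd4*. Its call thus rests on how overlapping reads are treated.

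Within the groups of the list the carriers of one function were divided as well. The mitochondrial aspartate-glutamate carrier *Slc25a12*, the close relative of *Slc25a13*, had 24.4 CPM in SVZ and 45.2 in cortex, a log2 ratio of -0.89. The glutamate carrier *Slc25a22* had 7.99 and 26.2 CPM (log2 ratio -1.71). By contrast, its relative *Slc25a18*, known from astrocytes, had 57 SVZ reads and 0 cortex reads. Against the floor it was 8.15-fold higher on the SVZ side, and the exact interval starts at 6.41-fold. The glutamine carriers of the list were all within 4-fold. Among them *Slc38a3*, known from astrocytes, was highest towards the SVZ with 9.47 and 2.81 CPM (log2 ratio 1.75), and the lysosomal carrier *Slc38a7* lay furthest towards the cortex with 10.1 and 19.5 CPM (log2 ratio -0.95). *Slc38a5* had 27.6 and 18.7 CPM and *Slc1a4*, the other neutral exchanger of the SLC1 family, 23.9 and 28.2.

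Of the 10 enzymes around glutamate, *Glul* included, 8 lay within 2-fold and 1 was past it on either side, beside 20.0% and 15.6% of all genes. *Glud1*, *Got1*, *Got2*, *Gpt*, *Gpt2* and *Aldh18a1* had log2 ratios between -0.48 and 0.54. *Glud1*, the glutamate dehydrogenase gene, had 155 CPM in SVZ and 107 in cortex. *Pcx*, the pyruvate carboxylase that astrocytes use to renew carbon for glutamate, had 12.3 and 5.67 CPM, a log2 ratio of 1.12 (0.84 to 1.41). In the cystine-glutamate exchanger, the light chain gene *Slc7a11* had 2.27 and 0.952 CPM and the heavy chain gene *Slc3a2* 152 and 131. On the GABA branch, the glutamate decarboxylase genes *Gad1* and *Gad2* had log2 ratios of 0.48 and 0.38. The membrane GABA transporter *Slc6a11* had a log2 ratio of 1.67, *Aldh5a1*, which acts after *Abat* in the breakdown of GABA, one of -0.62, and the vesicular transporter *Slc32a1* had 33 and 5 reads. Of the 6 genes of this branch that reached a mean of 1 CPM, 5 were higher in SVZ, as were 54.9% of all genes.

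**Figure D4:**
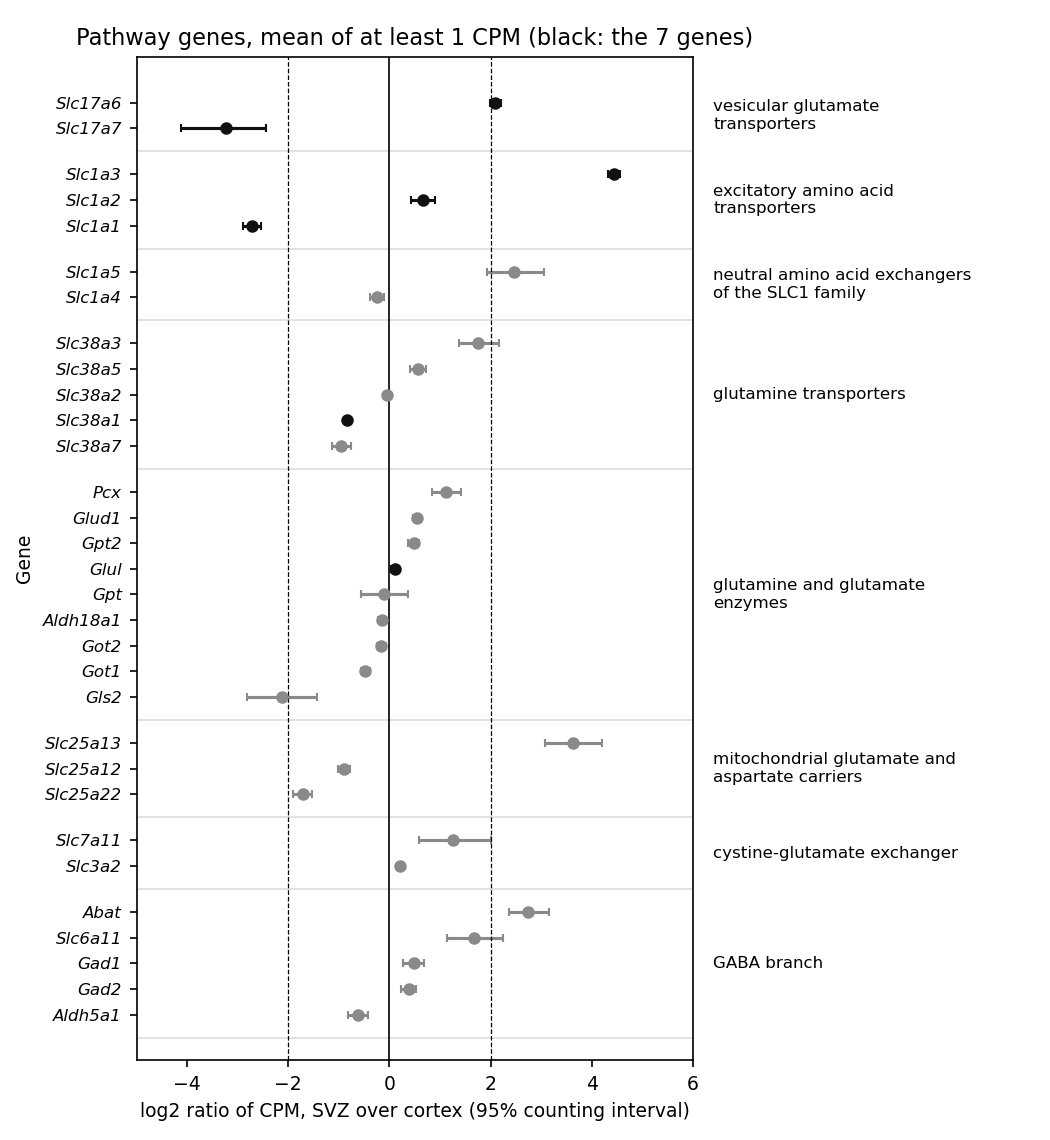
log2 ratios of SVZ over cortex CPM with exact 95% counting intervals for the genes of the pathway list that reached a mean of 1 CPM and are reported by name, grouped by role, with the 7 genes in black and dashed lines at 4-fold. Both transporter groups at the top hold genes on either side of 0, and the glutamine carriers and most enzymes lie between the dashed lines.

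By ratio, the pathway gene nearest to *Slc1a3* was *Slc25a13*, 0.82 away on the log2 scale. *Slc17a6* lay nearest to *Slc38a3* (0.34 away), *Slc1a2* to *Slc38a5* (0.11), *Glul* to *Slc3a2* (0.10) and *Slc38a1* to *Slc25a12* (0.06). *Slc1a1* and *Slc17a7* both lay nearest to *Gls2*, 0.60 and 1.13 away. The summed strand counts, which can include *Spryd4* reads, put *Gls2* at -0.56, and *Slc25a22* at -1.71 is then nearer to both. With 2 libraries this distance is the only measure of likeness.

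Markers of the cell types that the pieces could hold are set beside the genes, and their part in the ratios was not tested. Beside *Slc1a3*, the 11 radial glia markers summed to 6855 CPM in SVZ and 537 in cortex, with *Hopx* at 0 reads in the cortex library. *Fabp7* made up 4973 and 39.0 of these sums, and *Ptprz1*, singled out after its values were seen, 404 and 390. Of the 10 that reached a mean of 1 CPM, 9 were 4-fold or more higher in SVZ, and *Ptprz1* was not. The 10 astrocyte markers summed to 1383 and 31.4 CPM, of which *Aldoc*, the most read, made up 1013 and 1.86. Of these 10, 8 were 4-fold or more higher in SVZ. *Aldh1l1*, *Aqp4* and *Gfap* were at 0 in the cortex library and *Gjb6* in both, and *Aqp4* and *Gfap* reached only 3.73 and 2.04 CPM in SVZ. Unlike these radial glia and astrocyte sums, *Slc1a2* and *Glul* were only 1.58-fold and 1.08-fold higher in SVZ. The 8 microglia markers summed to 58.1 and 5.99 CPM, with *Trem2* at 0 in the cortex library, and the 5 choroid plexus markers to 246 and 0.726, of which *Ttr* made up 240 and 0.726, with *Folr1*, *Clic6* and *Otx2* at 0 in the cortex library and *Kl* in both.

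Beside *Slc17a6*, the 5 intermediate progenitor markers summed to 648 CPM in SVZ and 36.7 in cortex, each 4-fold or more higher in SVZ and *Neurog1* at 0 in the cortex library. The 6 thalamic neuron markers, a cell type known for *Slc17a6*, summed to 110 and 16.4 CPM, of which *Tcf7l2* made up 91.5 and 7.17. Of the 3 that reached a mean of 1 CPM, only *Tcf7l2* was 4-fold or more higher in SVZ, and *Gbx2* was at 0 in both libraries. Beside *Slc1a1* and *Slc17a7*, and opposite in direction to *Slc17a6*, the 9 glutamatergic neuron markers summed to 2291 CPM in SVZ and 5498 in cortex. These 9 include *Snap25* and *Syt1*, genes of neurons in general, and 7 of the 9 were 4-fold or more higher in cortex. None of the 9 was at 0 in the SVZ library, and *Neurod6*, the most read of these markers, stood at 1592 and 2797 CPM. Beside the GABA genes, the 8 inhibitory neuron markers summed to 138 and 493 CPM, of which *Npy* made up 14.3 and 379. Of these 8, 5 were higher in SVZ, with a median log2 ratio of 0.25. Cajal-Retzius markers summed to 3.73 and 30.8 CPM, of which *Reln* made up 2.47 and 27.7, with *Lhx1* and *Lhx5* at 0 in both. Meningeal markers summed to 4.59 and 9.39 CPM with *Col1a1* at 0 in the SVZ library. Erythroid markers summed to 15.1 and 7.85 CPM, of which *Alas2* made up 14.8 and 7.48. In both libraries 4 of these 6 were at 0, and reads that map to several places were not counted. Blood vessel markers (195 and 149 CPM) and oligodendrocyte precursor markers (12.1 and 12.0 CPM) were near level.

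**Figure D5:**
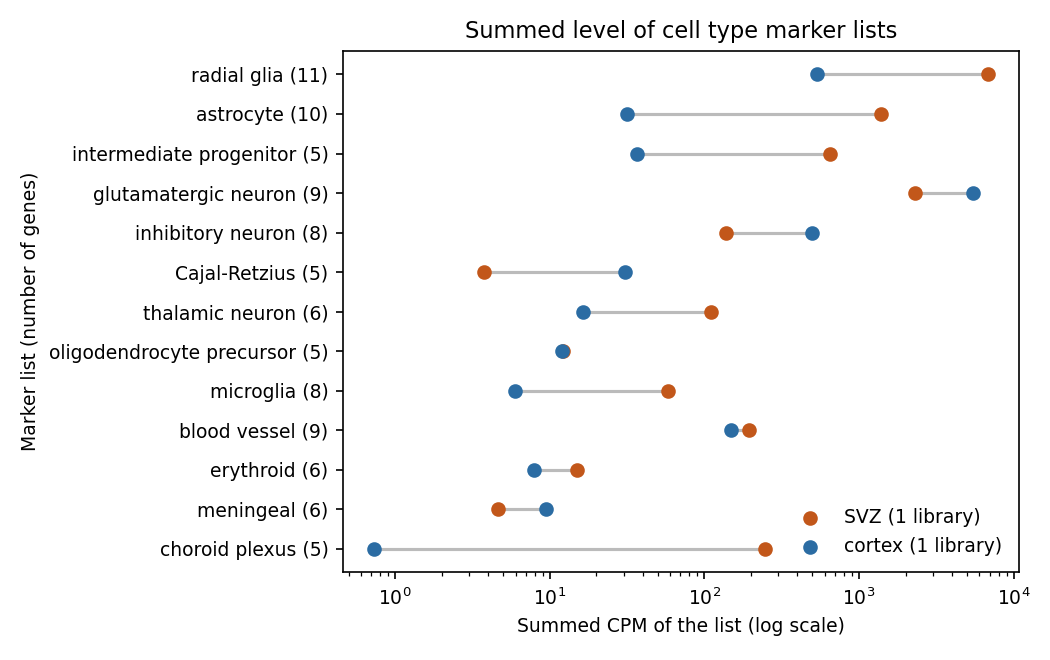
Summed CPM (log axis) of 13 cell type marker lists in the SVZ library (orange) and the cortex library (blue), 1 library per area, with the number of genes in brackets. The radial glia, astrocyte and intermediate progenitor sums lie higher in the SVZ library, and the glutamatergic neuron sum, 2291 against 5498 CPM, lies higher in the cortex library.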

How the data were processed

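RNA-seq counts of 1 SVZ and 1 cortex library, both cut by LCM, were used. Per the study's methods and the submitters' processing notes, the authors removed adapters with cutadapt 4.1, mapped read 1 to mm10 (the same assembly as GRCm38) with STAR 2.7.9a, and deposited its counts, whole reads per gene with no normalization. STAR leaves out reads that map to several places or overlap more than 1 gene. The unstranded counts were used, without the 4 summary lines. The authors' merged table, which also holds their CPM, fold changes and log10 ratios, was not used here.

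CPM used all gene-assigned reads, so that a read stood for 0.0194 CPM (SVZ) or 0.0454 CPM (cortex). Zeros were replaced by a floor of 3 reads (0.0583 and 0.136 CPM), which makes the ratio a bound that leaves out counting error in the other library. Ratio and share intervals are Clopper-Pearson, levels have Poisson intervals, and pairs of genes a conditional odds ratio interval. Shares per exon length hold the other genes' proportions fixed. Exon lengths (the union of exons) and positions came from GENCODE M21, matched by symbol. Promoters came from RefSeq (GRCm38.p6), which held 6 of the 7 genes. The members, lists, gene pairs and motifs were chosen with earlier results of these data known. Named genes were the members, the pathway list, for each member the pathway gene nearest in ratio, and markers that led their list or were at 0. Some genes of the pathway list entered the counts but are not reported here by name.

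Alternatives were DESeq2 1.42.0 size factors, the TMM and upper-quartile scalings of edgeR 4.0.16, totals that leave out the 10 top genes, the sum of the 2 stranded columns, a pseudocount of 1 CPM, other minimums and thresholds, and other lengths. The work ran in Python 3.11.15 (pandas 2.3.3, scipy 1.17.1, numpy 2.4.6, with figures from matplotlib 3.10.9) and R 4.3.3, and was tested on simulated data.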

Additional observations from a re-analysis of the deposited data

How the results depend on the processing

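No paired analysis was possible because SVZ and cortex have a single library apiece, and no replicate could be left out. All 42 ratios of the 7 genes recomputed under an alternative kept their sign, and 35 stayed within the counting interval. *Glul* moved to 0.02 (log2) with TMM scaling and DESeq2 size factors and to 0.01 with upper-quartile scaling, and *Slc38a1* to -0.93 with each of the 3. These scalings moved the median of all genes by up to -0.102. A pseudocount of 1 CPM moved *Slc17a7* to -1.59. The 2 of 7 genes past 4-fold on the SVZ side became 1 with TMM, upper-quartile and DESeq2 scaling and when the whole interval had to lie past 4-fold, as *Slc17a6* fell just short. The 2 on the cortex side became 1 with the pseudocount and with a minimum of 10 CPM, which *Slc17a7* does not reach.

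For the whole pathway list, the 5 genes past 4-fold on the SVZ side became 3 with a minimum of 10 CPM or the whole-interval rule and 10 with a ratio of at least 2, and the 3 on the cortex side became 1 with the pseudocount or a minimum of 10 CPM. Its median log2 ratio of 0.21 became 0.03 with a minimum of 10 CPM and 0.38 with no filter, which test other numbers of genes. The *Slc17a6* share in the cortex library was 90.0% with the longest transcript as length, and the *Slc1a3* share in the SVZ library 97.8% with that length and 96.9% with no length correction. For the marker lists, TMM scaling gave log2 ratios of summed CPM of 3.58 (radial glia), -1.36 (glutamatergic neurons), -1.93 (inhibitory neurons, mostly *Npy*, and -1.57 from the stranded columns) and 0.29 (blood vessels). Of the 38 pathway genes, 3 had another count in the stranded columns, and the 7 genes had the same counts there. Depth limits *Slc17a7* most, with 16 reads in the SVZ library.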
